A study of Mus musculus with 4 samples.

Results

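The genes *Gli1*, *Gli2*, *Gli3*, *Ptch1*, *Smo*, *Sufu*, *Hhip*, *Boc* and *Gas1* of the Sonic hedgehog pathway were examined in mouse neural stem/progenitor cells (NSPCs) that were exposed to PJ34, an inhibitor of poly(ADP-ribose) polymerases, or left untreated. Every probe that carried 1 of these 9 names and was not a control spot was taken, which gave 15 of the 55681 probes of the array. The 9 genes stand among 36499 gene names with a probe, of which 20223 were bright enough for the response to PJ34 to be tested and 17241 for the untreated levels. The methods name Slc:ICR embryos at embryonic day 13.5 as the source of NSPCs, which were kept in neurosphere medium with B-27, EGF and FGF-basic. Of 4 two-colour arrays, 2 carried RNA from wild-type and 2 from *Trp53*-/- NSPCs, which lack the tumour suppressor p53 and descend from heterozygous mice. Those mice were obtained separately and their strain is not given, so a difference of strain and the genotype cannot be told apart. Each array set a culture that received PJ34 at 20 μM, in the Cy5 channel, against an untreated culture of its genotype, in the Cy3 channel. The duration of the treatment is not given in the sources used here for these RNAs. RNA was prepared independently for each array, so n = 2 arrays per genotype. The dyes were never swapped, so within a genotype the effect of PJ34 and a preference of a probe for 1 dye cannot be told apart.

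Hedgehog ligands bind the receptor PTCH1, which otherwise holds the membrane protein SMO inactive in the primary cilium. Active SMO releases the GLI transcription factors from SUFU, and GLI1, GLI2 and GLI3 then raise or repress target genes, *Ptch1*, *Hhip* and *Gli1* among them. In the embryonic nervous system the pathway patterns ventral progenitors and sustains their proliferation.

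The sequences shown are of 2 kinds, the probes that carry these measurements and the promoters of the genes. The probe from which *Ptch1* was read (A_55_P2107292, mm9 chr13:63612879-63612938, minus strand) and both probes of *Sufu* (A_52_P603184, chr19:46529259-46529318, and A_51_P396550, chr19:46558091-46558150, plus strand) are shown, the first because the untreated level of *Ptch1* differed between its probes and the others because no control signal of *Sufu* was well above background with either. Each has at least 1 reading frame without a stop codon.
*Ptch1* A_55_P2107292: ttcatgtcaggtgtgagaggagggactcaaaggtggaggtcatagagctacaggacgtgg
*Sufu* A_52_P603184: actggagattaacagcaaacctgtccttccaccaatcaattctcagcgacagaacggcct
*Sufu* A_51_P396550: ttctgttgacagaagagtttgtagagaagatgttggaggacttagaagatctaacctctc

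The 250 bases before the start of the gene were available in RefSeq (GRCm38.p6) for 7 of the 9 genes and were searched on both strands for GACCACCCA, the motif that GLI proteins bind. None of the 7 held the motif, exactly or with 1 mismatch, while 74 of all 32851 windows of that length did exactly (0.225%) and 1903 with at most 1 mismatch (5.79%). *Gas1* and *Gli3* are shown because they were the genes that rose with PJ34. *Hhip*, a classical GLI target, is shown with its closest stretch in capitals, which differs from the motif at 2 of 9 positions. *Smo* and *Gli2* held stretches as close, while the closest in *Ptch1*, also a target, differed at 3 positions. How many of all windows come as close as 2 mismatches was not counted. The windows are chr13:60177536-60177785 (minus strand) for *Gas1*, chr13:15463473-15463722 (plus strand) for *Gli3* and chr8:80058009-80058258 (minus strand) for *Hhip*.
*Gas1*: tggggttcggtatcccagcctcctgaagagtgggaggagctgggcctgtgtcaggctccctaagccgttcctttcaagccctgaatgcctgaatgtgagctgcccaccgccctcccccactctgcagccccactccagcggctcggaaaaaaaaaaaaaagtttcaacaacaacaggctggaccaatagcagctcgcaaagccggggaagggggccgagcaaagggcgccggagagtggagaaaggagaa
*Gli3*: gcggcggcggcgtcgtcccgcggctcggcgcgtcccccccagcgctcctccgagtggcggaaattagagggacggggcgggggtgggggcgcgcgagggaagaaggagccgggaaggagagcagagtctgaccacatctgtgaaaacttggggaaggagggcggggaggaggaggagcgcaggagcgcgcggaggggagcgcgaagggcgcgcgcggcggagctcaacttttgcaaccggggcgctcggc
*Hhip*: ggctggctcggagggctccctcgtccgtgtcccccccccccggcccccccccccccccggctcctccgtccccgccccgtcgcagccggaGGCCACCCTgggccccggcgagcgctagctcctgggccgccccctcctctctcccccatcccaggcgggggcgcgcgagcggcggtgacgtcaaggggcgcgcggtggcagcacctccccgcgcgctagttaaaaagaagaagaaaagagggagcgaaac

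The signals of 21503 to 24536 probes per array were well above background in the control channel and of 26075 to 27154 in the PJ34 channel. In the control channel *Trp53* had log2 intensities of 8.28 and 8.51 in wild-type and 7.56 and 7.82 in *Trp53*-/- NSPCs, and whether its probe lies in the part removed from the allele was not determined. The log2 ratios of PJ34 over control of *Cdkn1a*, a target of p53, were 1.84 and 1.23 on the wild-type arrays and -0.48 and -0.74 on the *Trp53*-/- arrays. All 10 markers of neural stem and progenitor cells were well above background in every channel. The Y-linked transcript *Eif2s3y* had a log2 ratio of 4.22 on the array of *Trp53*-/- replicate 2 and of 0.34, 0.84 and -0.20 on the others, so the treated and the control culture of that array stood apart in Y-linked RNA. In the control channel *Eif2s3y* was at 8.96 and 8.47 in wild-type and at 6.01 and 6.24 in *Trp53*-/- NSPCs. It was above background on both wild-type arrays and on neither *Trp53*-/- array, so the untreated genotypes differed in Y-linked RNA too. The part of these differences in the results was not tested. Of the 9 genes, those called in *Trp53*-/- NSPCs, *Gas1* and *Gli3*, are also given without *Trp53*-/- replicate 2. For the further genes of the pathway such values are given for some only. As the RNA is from whole cultures, fewer cells of a kind and less RNA per cell cannot be told apart.

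Most of the 9 genes were within the reach of the arrays. 13 of the 15 probes, from 8 genes, had a channel well above background on both arrays of a genotype. The single probe of *Gli1*, the transcription factor that is itself a target of the pathway, (chr10:126766967-126767026 of mm9) was not well above background in either channel of the 4 arrays. Its log2 intensities in the control channel were 6.05 and 6.08 in wild-type and 6.30 and 5.91 in *Trp53*-/- NSPCs, so no change of *Gli1* could be measured. *Shh*, the ligand, was not above background in any channel either.

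**Figure D1:**
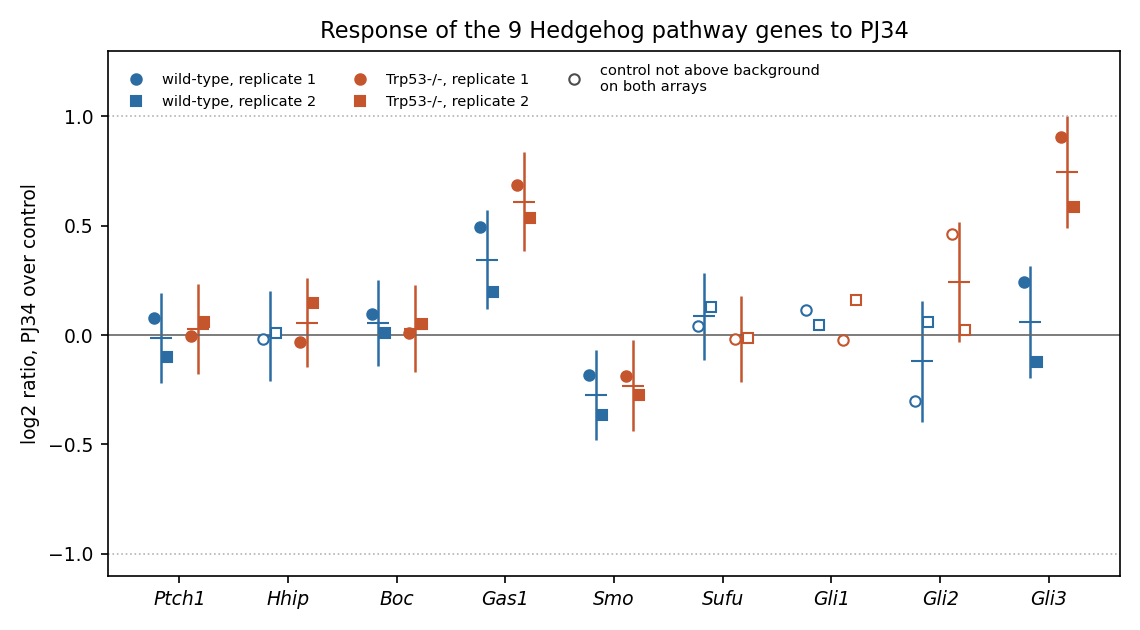
Log2 ratios of PJ34 over control of the 9 genes, with 1 point per array (circles, replicate 1; squares, replicate 2), the fitted mean of each genotype as a dash and its 95% interval as a line. Open points mark genes whose control channel was not well above background on both arrays of the genotype; *Gli1* has no fit. *Gas1* lies above 0 on all 4 arrays, *Gli3* on both *Trp53*-/- arrays and on 1 of 2 wild-type arrays, and *Smo* below 0 on all 4, where median centring in place of loess puts it above 0 in both genotypes; no mean reaches the dotted lines at 2-fold.

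In wild-type NSPCs, *Gas1* rose and *Smo* fell with PJ34, both by less than 2-fold, and the other 6 genes that could be tested did not pass. Among all 20223 genes tested, 13.5% were higher and 11.2% lower with a *q* below 0.05 in limma, so 1 gene of 8 in each direction is close to the share of all genes. In *Trp53*-/- NSPCs, *Gas1* and *Gli3* rose and none of the 8 genes fell, against 12.7% of all genes higher and 10.4% lower. By the criteria of the study, which also ask for more than 2-fold, none of the 8 genes was called in either genotype, against 0.499% and 0.361% of all genes. At an unadjusted *p* below 0.05 in limma, 2 of the 8 genes passed in wild-type and 3 in *Trp53*-/- NSPCs, against 31.8% and 30.8% of all genes. The median log2 ratio of the 8 genes was 0.03 in wild-type and 0.04 in *Trp53*-/- NSPCs, and that of all genes was 0.03 in both.

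The co-receptors are cell surface proteins that hold the ligand and present it to PTCH1. *Gas1*, which is anchored to the membrane by a lipid, was read from its brightest probe (A_51_P157083, chr13:60276399-60276458, minus strand). Its log2 ratios were 0.50 and 0.20 on the wild-type arrays and 0.69 and 0.53 on the *Trp53*-/- arrays. All 4 arrays were above 0, and the lowest *Trp53*-/- array was above the highest wild-type array by a narrow margin. The mean was 0.35 ± 0.21 (SD, n = 2 arrays) in wild-type, a 1.27-fold increase with *q* = 0.0211 from limma. It was 0.61 ± 0.11 in *Trp53*-/- NSPCs, a 1.53-fold increase with *q* = 0.00205. The difference between genotypes was 0.26 and did not pass (*q* = 0.331 in limma). Its 95% interval, from -0.06 to 0.58, covered 0. Without wild-type replicate 1 the wild-type mean of *Gas1* was 0.20 with *q* = 0.278, and the call was lost. Without *Trp53*-/- replicate 2 the *Trp53*-/- value was 0.69 with *q* = 0.00655.

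The 2 other probes of *Gas1* were dimmer, and their mean ratios were smaller in both genotypes. Probe A_55_P2025562 (chr13:60277268-60277327) had log2 ratios of 0.27, -0.23, 0.03 and 0.40 on the wild-type and the *Trp53*-/- arrays, in the order of the replicates. Probe A_55_P2070510 (chr13:60278243-60278302) had 0.13, 0.12, 0.29 and 0.17. Neither passed a *q* of 0.05 over all probes in limma, where the probe *q* of A_55_P2070510 in *Trp53*-/- NSPCs was 0.0579. With the mean of the 3 probes, *Gas1* stood at 0.16 (*q* = 0.129) in wild-type and at 0.35 (*q* = 0.0158) in *Trp53*-/- NSPCs.

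*Boc*, an immunoglobulin-type co-receptor (A_55_P2067652, chr16:44485665-44485724), lay between 0.01 and 0.10 on all 4 arrays, at 0.10 and 0.01 in wild-type and at 0.01 and 0.05 in *Trp53*-/- NSPCs. The 95% intervals of its means were -0.14 to 0.25 and -0.17 to 0.23.

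*Ptch1*, the receptor, and *Hhip*, a membrane protein that binds and removes the ligand, are both negative feedback targets of GLI proteins. The log2 ratios of *Ptch1* were 0.08 and -0.10 in wild-type and -0.00 and 0.06 in *Trp53*-/- NSPCs. Its second probe (A_52_P598605, chr13:63610298-63610357) had 0.13, -0.12, 0.11 and 0.26, and its control channel was above background on only 1 of the *Trp53*-/- arrays. *Hhip* (A_55_P1969276, chr8:82494280-82494339) had -0.02 and 0.01 in wild-type and -0.03 and 0.15 in *Trp53*-/- NSPCs. By the probes from which these genes were read, the replicates lay on either side of 0 in each genotype, while the second probe of *Ptch1* was above 0 on both *Trp53*-/- arrays. The 95% intervals were -0.22 to 0.19 and -0.18 to 0.23 for *Ptch1*, and -0.21 to 0.20 and -0.15 to 0.26 for *Hhip*. A second probe of *Hhip* (A_51_P416822, chr8:82490729-82490788) was not above background in any channel.

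*Smo*, the signal transducer that PTCH1 restrains, was read from a bright probe (A_51_P258766, chr6:29711225-29711284, plus strand). Its log2 ratios were -0.18 and -0.37 in wild-type and -0.19 and -0.27 in *Trp53*-/- NSPCs, so all 4 arrays were below 0 and the genotypes overlapped. The wild-type mean fell by 0.27 on the log2 scale, 1.21-fold (*q* = 0.0357 in limma), but with median centring in place of loess it was 0.41 and above 0. The call was lost without wild-type replicate 1 (-0.37, *q* = 0.0715) and without wild-type replicate 2 (-0.18, *q* = 0.288). The *Trp53*-/- mean was -0.23 with *q* = 0.0603, and 0.72 with median centring. The other probe of *Smo* (A_55_P2121484, chr6:29710919-29710978) lies next to it on the same strand and was above 0 on all 4 arrays, with 0.17, 0.21, 0.06 and 0.15. Averaged over both probes *Smo* was at -0.04 and -0.06 and did not pass in either genotype, so the direction for the gene depended on the probe.

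*Sufu* encodes the cytoplasmic protein that retains GLI factors, and it was dim. On all 4 arrays the control channel of both probes was not well above background, so its log2 ratios of 0.04, 0.13, -0.02 and -0.02 for the brighter probe and 0.12, -0.12, -0.02 and 0.25 for the other are given as measured, with no fold. Neither probe passed in limma.

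Of the 2 GLI factors that could be tested, *Gli3* passed in *Trp53*-/- NSPCs and *Gli2* in neither genotype. *Gli3*, mainly a repressor in the absence of ligand, stood at log2 ratios of 0.24 and -0.12 in wild-type and of 0.90 and 0.58 in *Trp53*-/- NSPCs (A_51_P171288, chr13:15821502-15821561, plus strand). Both *Trp53*-/- arrays were above both wild-type arrays. The mean was 0.06 ± 0.26 in wild-type, with a 95% interval from -0.20 to 0.32. In *Trp53*-/- NSPCs it was 0.74 ± 0.23, a 1.68-fold increase with *q* = 0.00156 in limma, and both channels were well above background on all 4 arrays. Without *Trp53*-/- replicate 2 it was 0.90 with *q* = 0.000927, and without replicate 1 it was 0.58 with *q* = 0.0124. The test of the difference gave 0.68 with a 95% interval from 0.32 to 1.05, an unadjusted *p* of 0.00168 and *q* = 0.0575 in limma, which just missed the threshold. It fell on the other side without wild-type replicate 1, with 0.87 and *q* = 0.0152, and without *Trp53*-/- replicate 2, with 0.85 and *q* = 0.0239. Without wild-type replicate 2 it was 0.50 (*q* = 0.178) and without *Trp53*-/- replicate 1 it was 0.52 (*q* = 0.156). *Gli2*, the main activator, had -0.30 and 0.06 in wild-type and 0.46 and 0.02 in *Trp53*-/- NSPCs (A_52_P357829, chr1:120731255-120731314). Its control channel was above background only on wild-type replicate 1, and its *q* in limma was 0.285 in wild-type and 0.106 in *Trp53*-/- NSPCs.

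None of the 8 genes had a *q* below 0.05 for the difference between genotypes in limma, and 1, *Gli3*, had an unadjusted *p* below 0.05, as had 14.4% of all genes. Over all genes tested, 0.475% had a larger and 1.3% a smaller log2 ratio in *Trp53*-/- than in wild-type NSPCs at that *q*, and 0.48% passed with more than 2-fold.

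**Figure D2:**
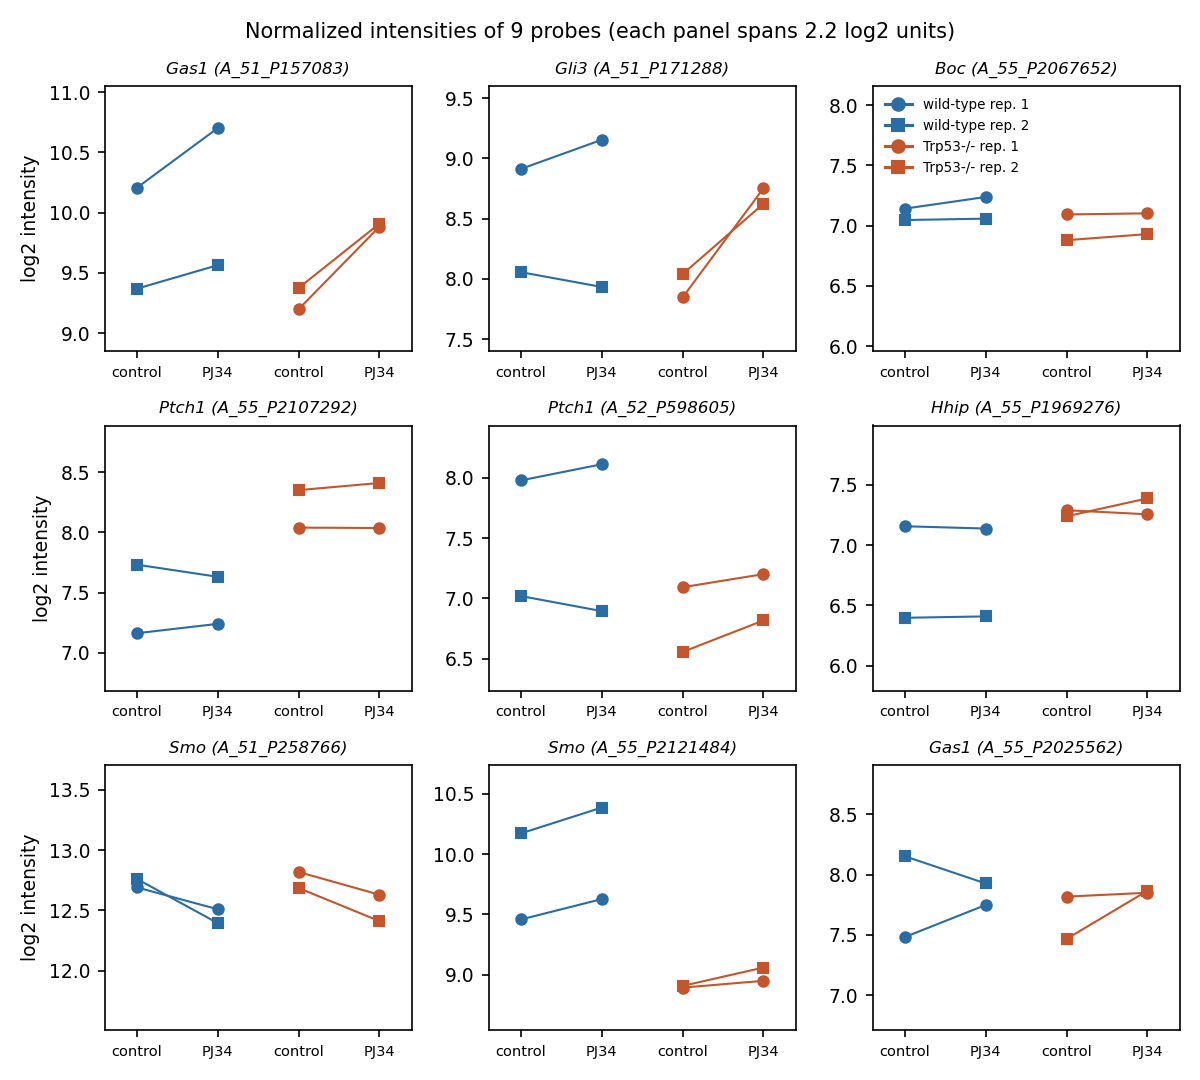
Normalized log2 intensities of 9 probes in the control and PJ34 channels, joined by a line for each array (blue, wild-type; orange, *Trp53*-/-; circles, replicate 1; squares, replicate 2). *Gas1* and *Gli3* climb steeply on both *Trp53*-/- arrays, from control levels of 7.85 and 8.04 for *Gli3*, while the vertical gap between the wild-type arrays exceeds their response to PJ34. The paired panels of *Ptch1* and *Smo* show, for *Ptch1*, probes of 1 gene with opposite order of the genotypes, and for *Smo* a level bright probe beside a dimmer probe that lies lower in *Trp53*-/- NSPCs.

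The untreated levels were compared in the control channel after normalization between arrays. As the controls of the genotypes also differed in Y-linked RNA, that difference and the genotype cannot be told apart here. Of the 9 genes, 6 had a control channel bright enough, none of them passed a *q* of 0.05 in limma, and 1, *Ptch1*, had an unadjusted *p* below 0.05, as had 25.1% of all genes. Over all 17241 genes tested, 5.03% were higher and 5.09% lower in *Trp53*-/- NSPCs with a *q* below 0.05, and 4.79% were called with more than 2-fold. The spread between replicates was wider in wild-type, where the SD of the difference between the control levels of the arrays was 0.50 over genes, against 0.23 in *Trp53*-/- NSPCs.

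*Ptch1* had log2 control levels of 7.16 and 7.73 in wild-type and 8.04 and 8.35 in *Trp53*-/- NSPCs by the probe printed above, so the genotypes did not overlap. The difference was 0.75, with a 95% interval from 0.15 to 1.35 and *q* = 0.0747 in limma. It was 0.46 without wild-type replicate 1 and 1.08 without wild-type replicate 2. In these fits the spread comes from the *Trp53*-/- arrays alone, where control levels varied less, so no *q* is given. The second probe of *Ptch1* ran the other way, with 7.98 and 7.02 in wild-type and 7.09 and 6.56 in *Trp53*-/- NSPCs, and the mean of both probes differed by 0.04. A higher untreated level of *Ptch1* in *Trp53*-/- NSPCs was therefore read from 1 probe only.

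*Gas1* and *Gli3* shared a pattern in the control channel. *Gas1* was at 10.21 and 9.37 in wild-type and at 9.20 and 9.37 in *Trp53*-/- NSPCs, and *Gli3* was at 8.91 and 8.06 against 7.85 and 8.04. For both genes wild-type replicate 1 was high and the remaining 3 arrays lay close together. Their differences of -0.50 and -0.54 had *q* = 0.189 and 0.174 in limma. Without wild-type replicate 1 they were -0.08 and -0.11, and without wild-type replicate 2 they were -0.93 and -0.98. The untreated difference of these genes thus rested on wild-type replicate 1.

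*Hhip* had 7.16 and 6.40 in wild-type and 7.29 and 7.24 in *Trp53*-/- NSPCs, a difference of 0.49 with *q* = 0.177. The wild-type control of *Hhip* was above background on 1 of 2 arrays only, so the value of 0.85 without wild-type replicate 1 rests on 1 dim wild-type array. *Boc* was level, with 7.14 and 7.05 against 7.09 and 6.88. *Smo* was level by its bright probe, with 12.69 and 12.76 against 12.82 and 12.69, and lower in *Trp53*-/- NSPCs by the dimmer probe, with 9.46 and 10.17 against 8.89 and 8.91 and a probe *q* of 0.0618 in limma. The second bright probe of *Gas1*, A_55_P2025562, was at 7.48 and 8.15 against 7.82 and 7.47. The control levels of *Gli2* were 6.99 and 6.52 in wild-type, above background on 1 array, and 6.63 and 6.83 in *Trp53*-/- NSPCs, above background on none.

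Other cell types could enter these levels, and their markers were read on the same arrays. Of 4 endothelial markers, *Cdh5* and *Tek* were not above background in any channel, and the summed linear intensity of the list, 8113 to 8536 in the wild-type and 3233 to 3620 in the *Trp53*-/- controls, came mostly from *Kdr*, at 13.02 and 12.94 against 11.72 and 11.55 on the log2 scale (*q* = 0.0144 in limma). The summed intensity of 5 astrocyte markers was 1359 to 3003 against 2710 to 2808, with *Aldh1l1* as its largest part in wild-type, while 3 of the 4 that could be tested were higher in untreated *Trp53*-/- NSPCs, *Gfap* by 2.38, *S100b* by 1.89 and *Aqp4* by 0.66 (*q* = 0.0123, 0.00916 and 0.0458). Of 6 oligodendrocyte markers, 2 were higher in untreated *Trp53*-/- NSPCs, and *Mbp* was higher by 1.98 on the log2 scale (*q* = 0.0087 in limma). Of 5 microglia and blood cell markers, *Csf1r* and *Itgam* were above background in every channel and *Ptprc*, *Aif1* and *Cx3cr1* in none. Of 7 mesenchymal markers, *Foxc1* was above background in every channel, and *Col1a1*, *Col3a1*, *Lum* and *Dcn* in none. Over all genes, 5.03% were higher and 5.09% lower in untreated *Trp53*-/- NSPCs. With PJ34, 4 of the 6 oligodendrocyte markers were lower in *Trp53*-/- and 1 in wild-type NSPCs, and none was higher. Over all genes, 10.4% were lower and 12.7% higher with PJ34 in *Trp53*-/-, and 11.2% and 13.5% in wild-type NSPCs. Of the 10 progenitor markers, 3 rose and 3 fell in wild-type, and 2 rose and 2 fell in *Trp53*-/- NSPCs. The part of these cells in the values of the 9 genes was not tested.

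Around the 9 genes, 78 further genes of the pathway were followed in 5 lists. Of these, 68 were bright enough for the response to be tested and 63 for the untreated levels. At a *q* below 0.05 in limma, 16 passed in wild-type (23.5%) and 17 in *Trp53*-/- NSPCs (25%), close to the 24.7% and 23.1% of all genes. For the difference between genotypes 1 passed (1.47%, against 1.78% of all genes), and for the untreated levels 3 did (4.76%, against 10.1%). Of the ligands and the genes that release them, 5 of 9 were tested, since *Shh*, *Ihh*, *Scube1* and *Scube3* were too dim. *Dhh*, which encodes the ligand Desert hedgehog, rose in wild-type, with log2 ratios of 0.41 and 0.50, and fell in *Trp53*-/- NSPCs, with -0.25 and -0.86. The difference of -1.01 passed (*q* = 0.0199), and without *Trp53*-/- replicate 2 it was -0.71 (*q* = 0.0425) while the *Trp53*-/- mean of -0.25 no longer passed (*q* = 0.244). With median centring the *Trp53*-/- mean of *Dhh* was 0.27, above 0 but at -0.36 relative to the median of all genes. The wild-type mean of 0.45 (*q* = 0.0183) did not pass without replicate 1 (*q* = 0.0503) or without replicate 2 (*q* = 0.0939). In the control channel *Dhh* was at 8.37 and 8.53 in wild-type and 10.72 and 10.74 in *Trp53*-/- NSPCs, 4.87-fold higher with *q* = 0.00725. The marker *Mbp* was higher in the same controls, and the part of oligodendrocyte-lineage cells in the value of *Dhh* was not tested.

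Of the 5 other receptors and co-receptors, 1 rose in wild-type and 2 in *Trp53*-/- NSPCs, and none fell. Of all genes, 13.5% rose and 11.2% fell in wild-type, and 12.7% and 10.4% in *Trp53*-/- NSPCs. *Cdon*, a co-receptor related to *Boc*, stood at log2 ratios of 0.52 and 0.47 in wild-type and of 0.80 and 0.97 in *Trp53*-/- NSPCs (*q* = 0.0026 and 0.000233 in limma), and its genotypes did not overlap. The difference of 0.39 had *q* = 0.141. Averaged with a second probe *Cdon* was at 0.30 and 0.63 and still passed in both genotypes. *Lrp2*, a large endocytic receptor that binds SHH, had 0.25 and 0.21 in wild-type and 0.63 and 0.50 in *Trp53*-/- NSPCs. It passed in *Trp53*-/- NSPCs (*q* = 0.00173 in limma), with a fitted mean rise of 1.48-fold. Its control there was not well above background on either array, so this fold is given as measured. Among the co-receptors, *Cdon* thus rose with PJ34 in both genotypes, while the intervals of *Boc* covered 0 in both. *Gas1* rose in both by its brightest probe only. With the mean of its probes the wild-type value was 0.16 and did not pass (*q* = 0.129 in limma).

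**Figure D3:**
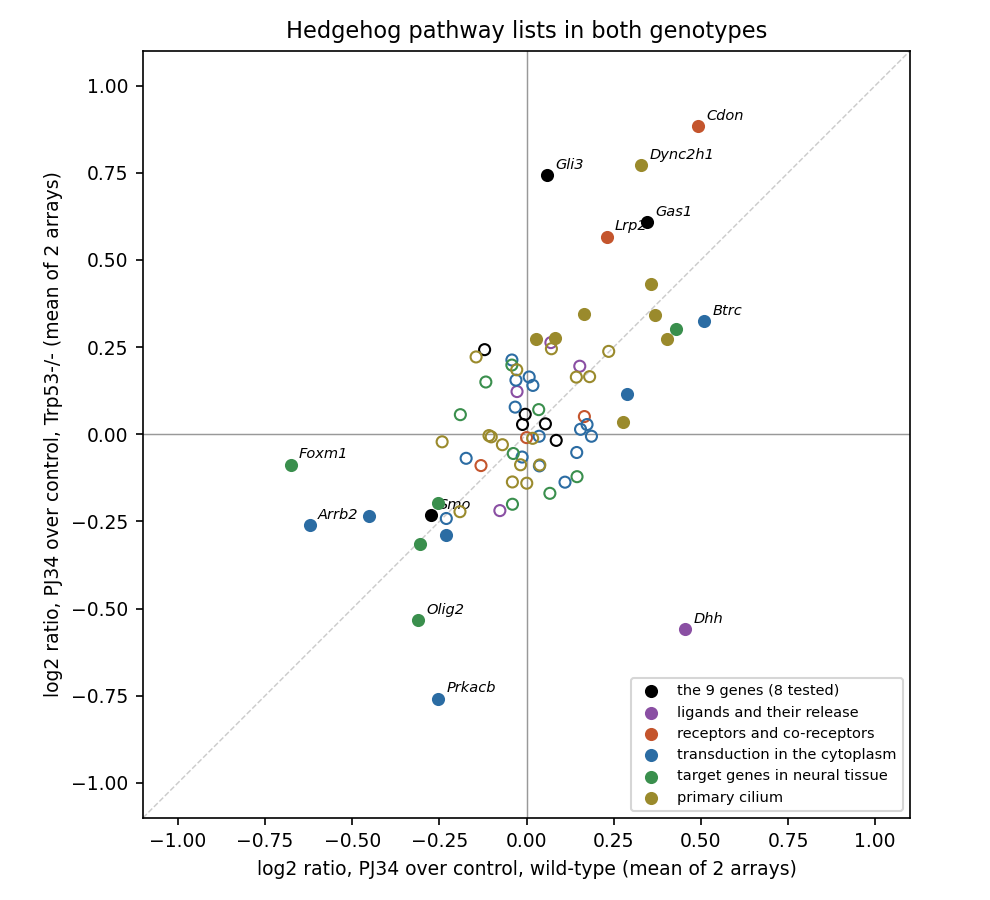
Mean log2 ratio of PJ34 over control in wild-type (horizontal) against *Trp53*-/- NSPCs (vertical), 1 point per gene of the 9 genes and of the 5 pathway lists, filled where *q* was below 0.05 in at least 1 genotype; the dashed line marks equal change. *Cdon*, *Gas1*, *Lrp2* and *Dync2h1* lie at the upper right and *Dhh* stands alone at the lower right. With median centring in place of loess, *Smo*, *Olig2*, *Arrb2*, *Prkacb* and *Dhh* moved above 0 in *Trp53*-/- NSPCs, but of these *Smo* alone exceeded the all-gene median, itself 0.63 under that scaling.

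Of 21 genes that carry the signal through the cytoplasm, 2 rose and 2 fell in wild-type, and 1 rose and 3 fell in *Trp53*-/- NSPCs. The shares of all genes were 13.5% higher and 11.2% lower in wild-type, and 12.7% and 10.4% in *Trp53*-/- NSPCs. *Arrb2*, a beta-arrestin that binds SMO, had -0.60 and -0.64 in wild-type and -0.21 and -0.31 in *Trp53*-/- NSPCs, where median centring turned the sign to 0.49, which is -0.14 relative to the median of all genes under that scaling. The *Trp53*-/- mean of *Arrb2* passed with both arrays (*q* = 0.0376), but not without replicate 1 (-0.31, *q* = 0.109) or without replicate 2 (-0.21, *q* = 0.319). *Prkacb*, a catalytic subunit of the protein kinase A that phosphorylates GLI proteins, fell in *Trp53*-/- NSPCs, with -0.79 and -0.73 (*q* = 0.000699), and there too median centring turned the sign, to 0.34, which is -0.29 relative to the median of all genes. Its control levels of 12.70 and 13.00 in wild-type and 15.42 and 15.36 in *Trp53*-/- NSPCs differed 5.84-fold (*q* = 0.00725). *Btrc*, part of the ubiquitin ligase that processes GLI3, rose in both genotypes, with 0.52 and 0.50 in wild-type and 0.52 and 0.13 in *Trp53*-/- NSPCs, where it did not pass without replicate 1 (0.13, *q* = 0.381). The probe assigned to *Ulk3*, a kinase of GLI proteins, was 2.00-fold lower in untreated *Trp53*-/- NSPCs (*q* = 0.0298 in limma). This probe (A_55_P2075237) is placed at chr15:19075671-19075730 of mm9. Whether that is the locus of *Ulk3* was not checked, so the value is of the probe and may not be of *Ulk3*.

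Of 19 target genes in neural tissue, 13 were tested. *Nkx2-1*, *Nkx2-9*, *Foxa2*, *Foxf1*, *Pax7* and *Dbx1* were not above background in any channel. In wild-type NSPCs 1 rose and 4 fell, beside 13.5% and 11.2% of all genes. In *Trp53*-/- NSPCs 1 rose and 2 fell, beside 12.7% and 10.4%. *Olig2*, a factor of ventral progenitors that also marks the oligodendrocyte lineage, had -0.18 and -0.44 in wild-type and -0.52 and -0.55 in *Trp53*-/- NSPCs (*q* = 0.0251 and 0.00283), and median centring turned it to 0.37 and 0.43, which is -0.08 and -0.20 relative to the median of all genes under that scaling. Without wild-type replicate 2 the wild-type mean of *Olig2* was -0.18 and did not pass (*q* = 0.281). *Foxm1*, which drives the G2 and M phases, had -0.57 and -0.78 in wild-type (*q* = 0.000603) and -0.02 and -0.16 in *Trp53*-/- NSPCs. The difference of *Foxm1* was 0.59 with *q* = 0.0526, and 0.70 with *q* = 0.0369 without wild-type replicate 1. *Mycn* rose in both genotypes, with 0.54 and 0.32 in wild-type and 0.20 and 0.40 in *Trp53*-/- NSPCs (*q* = 0.00731 and 0.0318). It did not pass without wild-type replicate 1 (*q* = 0.116), nor in *Trp53*-/- NSPCs without replicate 1 (*q* = 0.0558) or replicate 2 (*q* = 0.339). The cyclins *Ccnd1* and *Ccnd2*, which Hedgehog signalling induces in progenitors, had log2 ratios between -0.29 and 0.29 on the 4 arrays and did not pass.

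Of 24 genes of the primary cilium, the organelle in which SMO is activated, 5 rose in wild-type and 7 in *Trp53*-/- NSPCs, and none fell. Over all genes 13.5% were higher and 11.2% lower in wild-type, and 12.7% and 10.4% in *Trp53*-/- NSPCs. The medians of the list were 0.03 and 0.16, beside 0.03 over all genes in both genotypes. *Dync2h1*, the heavy chain of the motor that returns cargo from the tip of the cilium, had 0.27 and 0.38 in wild-type and 0.83 and 0.71 in *Trp53*-/- NSPCs (*q* = 0.0166 and 0.000402). The wild-type mean of *Dync2h1* did not pass without replicate 1 (0.38, *q* = 0.0621) or replicate 2 (0.27, *q* = 0.152). *Dync2li1*, another subunit of the same motor, had 0.35 and 0.38, and 0.34 and 0.34. *Ift122*, of the intraflagellar transport complex that this motor carries, had 0.33 and 0.38, and 0.45 and 0.41. The count over all 5 lists was 7 without wild-type replicate 1 and 6 without wild-type replicate 2 in wild-type, and 7 without *Trp53*-/- replicate 1 and 8 without replicate 2 in *Trp53*-/- NSPCs.

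The normalization bears on every ratio. Centring each array on its median in place of loess put the median of all genes tested at 0.46 in wild-type and 0.63 in *Trp53*-/- NSPCs. Relative to that median, *Gas1* was at 0.47 and 0.76, *Gli3* at 0.07 and 0.74, *Smo* at -0.05 and 0.09 and *Ptch1* at -0.11 and 0.00. *Gas1* and *Gli3* therefore stood above the median of all genes in *Trp53*-/- NSPCs under both scalings. With the scanner software's own log ratios they had 0.67 (*q* = 0.0541) and 0.92 (*q* = 0.0592) there, as high as before but without a call.

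**Figure D4:**
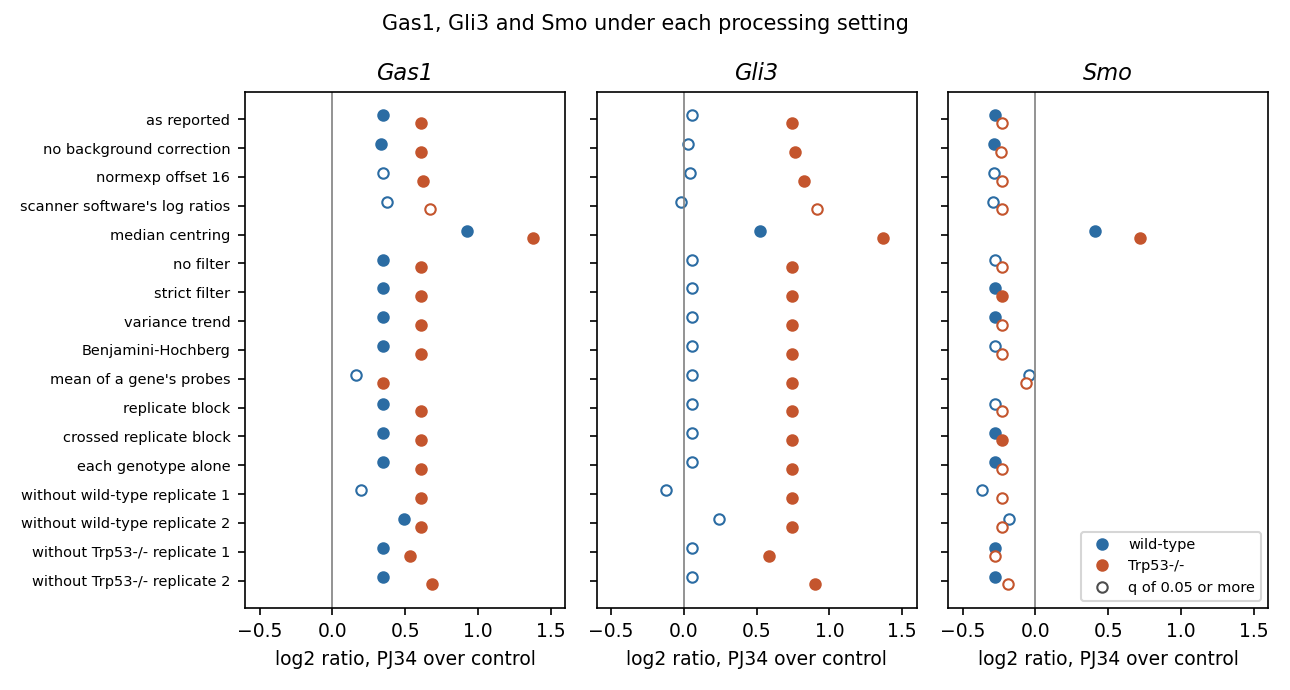
Log2 ratio of PJ34 over control for *Gas1*, *Gli3* and *Smo* in wild-type (blue) and *Trp53*-/- NSPCs (orange) under each processing setting, filled where *q* was below 0.05 in limma. *Gas1* and *Gli3* stayed above 0 in *Trp53*-/- NSPCs under every setting shown, between 0.35 and 1.38 for *Gas1* and between 0.58 and 1.37 for *Gli3*, while *Smo* crossed 0 with median centring.

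*Gli1* could not be read, so the genes with the most similar pattern were sought for *Ptch1*, by the Euclidean distance between log2 ratios on the 4 arrays over 15404 genes that were bright in both channels everywhere. *Vangl2*, a planar cell polarity gene, was nearest at 0.014, and the transcript named NAP062115-1, *Adar*, *Rilpl1* and *Vps35l* followed at 0.032 to 0.044. As the ratios of *Ptch1* lay between -0.10 and 0.08, these are genes that like *Ptch1* stayed near 0. Nearest to *Gli3*, whose neighbours were sought after its values were seen, was *Antxr2* at 0.24, with 0.37 and 0.04 in wild-type and 0.85 and 0.68 in *Trp53*-/- NSPCs.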

How the data were processed

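The authors labelled RNA of PJ34-treated and untreated NSPCs with Cy5 and Cy3, hybridised both to Agilent mouse gene expression arrays and read them with Agilent Feature Extraction 10.7.3.1. The deposited spot intensities (mean signal and median background per channel) were used. Per the file headers the scanner software also gave a log10 ratio, Cy5 over Cy3, which served only as an alternative. A deposited table of the whole series, whose columns are named by number alone, was not used.

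Intensities were background-corrected (normexp, offset 50), normalized by loess within arrays, and scaled by Aquantile between arrays for channel levels, in limma 3.58.1 under R 4.3.3. Log2 ratios were fitted with lmFit and eBayes over both genotypes, and *p* was turned into Storey's *q* over all genes. A probe was kept for ratios where both arrays of a genotype had a channel well above background (27029 probes), and for untreated levels where they had the control channel above it (22409 probes). A gene was read from its brightest kept probe. Where 1 channel was not above background, a fold was taken against the higher, per array, of the probe's own signal and the lowest signal well above background. For *Lrp2* the own signal was the higher, so its fold equals the fitted mean and is no lower limit. RefSeq symbols (GRCm38.p6) were matched by accession for 26300 of 55681 probes. The procedure was tested on simulated data.

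Named were the 9 genes, list genes with *q* below 0.05 with the largest changes first, *Shh* and *Cdon* in any case, checks, markers, and the 5 genes most like *Ptch1*. *Ccnd1*, *Ccnd2*, *Ihh*, *Scube1*, *Scube3*, the undetected targets and the neighbour of *Gli3* were named after their values were seen. The 9 genes and the lists were chosen with earlier results of these data known. Alternatives were background, offset, scaling, filter, *q* method, probe averaging, replicate block, and leaving out each array. No spot was saturated. With 2 arrays per genotype, their number limits the precision. Some genes that this rule names are not reported here.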

Additional observations from a re-analysis of the deposited data

Results flagged for a closer look

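The response of *Dhh*, the gene of the ligand Desert hedgehog, to PJ34 differed between the genotypes by -1.01 on the log2 scale in the test of the difference itself (*q* = 0.0199, limma). Both wild-type arrays were above 0, at 0.41 and 0.50, and both *Trp53*-/- arrays below it, at -0.25 and -0.86. The difference had *q* = 0.117 with an offset of 16, *q* = 0.298 with log ratios from the scanner software and *q* = 0.414 with median centring, where it was -0.70.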

How the results depend on the processing

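Of the 8 genes tested, 2 were called in each genotype. In wild-type NSPCs the count was 0 with an offset of 16, with log ratios from the scanner software and with the mean of a gene's probes, 1 without a filter, with Benjamini-Hochberg adjustment and with the replicate block, 5 with median centring, and 0 to 2 without 1 array. In *Trp53*-/- NSPCs it was 0 with log ratios from the scanner software, 7 with median centring, 4 with a crossed replicate block and 2 to 2 without 1 array. For the difference it went from 0 to 1 without a filter, with a strict filter and with either block. For untreated levels it went to 1 with the replicate block and with a separate-channel model. Of the 78 list genes, the 16 called in wild-type became 3 with log ratios from the scanner software, 50 with median centring and 6 to 16 without 1 array. The 17 in *Trp53*-/- became 11 with an offset of 16, 4 with log ratios from the scanner software, 60 with median centring, 10 with Benjamini-Hochberg adjustment, 26 with the crossed block and 7 to 20 without 1 array. The 1 for the difference became 0 with an offset of 16, log ratios from the scanner software or median centring, 2 without a filter, with a strict filter or with the replicate block, 4 with the crossed block and 1 to 2 without 1 array. The 3 for untreated levels became 8 with the replicate block, 6 with the separate-channel model, 5 with the crossed block and 2 to 30 without 1 array. Median centring moves the median of all genes. Among values called before or after, it turned the sign in wild-type of *Ptch1* (0.34), *Smo* (0.41), *Arrb1* (0.10), *Prkacb* (0.43), *Spop* (0.38), *Nkx2-2* (0.25), *Olig2* (0.37) and *Rab34* (0.34). In *Trp53*-/- NSPCs it turned that of *Smo* (0.72), *Dhh* (0.27), *Arrb1* (0.57), *Arrb2* (0.49), *Prkacb* (0.34), *Spop* (0.56), *Ulk3* (0.62), *Nkx2-2* (0.40), *Olig2* (0.43), *Rab34* (0.58) and *Foxm1* (0.72). Values without a call, such as *Hhip* in wild-type, changed sign as well. For the other settings the cause was not tested. Of 1926 values of single genes under alternatives, 1711 kept their call or lack of one, 129 lost a call, 65 gained one and 19 turned. A value counted as turned only where it was called before or after. A change of sign without a call is therefore among the 1711. Some alternatives, such as Benjamini-Hochberg adjustment, cannot move an estimate, so these counts overstate how stable the values are. Same-numbered arrays did not deviate together (correlation -0.178 for ratios and 0.081 for control levels), so the numbers were not taken as pairs, and the replicate block gave 14 list genes in wild-type and 13 in *Trp53*-/- NSPCs. The crossed block was chosen after seeing the data. Signals near background limited *Gli1*, *Gli2*, *Sufu* and *Hhip*.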
